A study of Oryza sativa Japonica Group with 28 samples.

Results

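Aleurone (AL) and starchy endosperm (EN) of rice grains were compared at 16 days after flowering (DAF). The comparison used 5 of the 28 libraries of a laser-capture RNA-seq atlas of the developing grain. They are 3 libraries of AL, named MM04, MM17 and MM18, and 2 of EN, named MM17 and MM18, which are all the libraries the sample labels give to these groups. Both groups came from untreated plants of cultivar Nipponbare grown in hydroponic solution, with no mutation or transgene named in the labels. Several frozen grains were pooled for each preparation, the layer was cut from cryosections by laser, and the RNA was converted to cDNA and amplified by PCR before sequencing. AL was sampled at 16 DAF only, when the outermost endosperm cells have become a distinct layer, so the comparison asks which transcripts separate that layer from the interior at this stage. The labels do not say what an MM number stands for or whether libraries came from separate plants, so p-values measure the spread between libraries. That spread was estimated within the groups of all 28 libraries, so most of it comes from other regions and days. In samples of this kind, fewer cells of a type and less RNA per cell cannot be told apart.

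AL and EN arise from the same endosperm tissue. EN cells fill with starch and with storage proteins, mainly glutelins and prolamins, and they die as the grain matures. AL cells form the outer layer, stay alive in the dry grain, store oil and phytate, tolerate drying, and at germination release enzymes that mobilise the reserves of the interior. Starch is made from sucrose through sucrose synthase, the formation of ADP-glucose by glucose-1-phosphate adenylyltransferase, and the starch synthases and branching enzymes. Phytate is built from inositol phosphates and holds most of the phosphate and much of the mineral store of the grain.

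Values below are the deposited signal, which is the read number of a gene multiplied by 1 factor per library. A gene was called where the adjusted p was under 0.05 over all tested genes and the fitted difference was over 2-fold. Fitted differences are AL minus EN on the log2(value + 10) scale with their standard error (SE), from the limma fit over all 28 libraries. A fold is the ratio of the group means of the values. Where both EN libraries or all AL libraries are at 0, the fitted difference depends on the added 10, and a lower bound is given against a floor of 3 reads per library averaged over the group, which is 8.2 in EN and 0.669 in AL. These floors cover counting error only.

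The 5 libraries hold 10177832 to 38956160 estimated reads. AL libraries had 19917 to 20238 genes with at least 10 reads and EN libraries 8943 and 9739. With estimated reads scaled down in proportion to the depth of the shallowest library, EN MM18, the numbers were 16640 to 18121 in AL. In EN they were 7997 and 8943. No reads were sampled for this. The 10 most abundant genes took 8.63, 25.4 and 25.9% of the signal in AL MM04, MM17 and MM18, and 51.4 and 41.8% in EN MM17 and MM18. Few genes thus fill an EN library, and the AL libraries were not alike in this respect.

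Libraries of 1 group were not always the nearest to each other. Across genes on the log2 scale, AL libraries correlated at 0.89 to 0.949 with each other, the 2 EN libraries at 0.758, and AL with EN libraries at 0.618 to 0.709. AL MM17 correlated at 0.99 with library MM17 of the nucellar epidermis (NE), the maternal layer that lies against AL, which is higher than with any AL library. NE MM17 correlated at 0.884, 0.99 and 0.941 with AL MM04, MM17 and MM18. With NE MM04 and NE MM18 it correlated at only 0.77 and 0.776. The part of this likeness in the results below was not tested. Genes are not independent replicates, so these correlations carry no p.

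Markers chosen with the labels in view differed between AL and EN, while the AL list was as high in NE. The 13 identifiers listed for AL took 1.57, 1.37 and 1.1% of the signal in AL and 0.0037 and 0.027% in EN, and 1.7, 1.32 and 0.848% in the NE libraries MM04, MM17 and MM18. They include a peroxiredoxin, an inositol-3-phosphate synthase and several regulators. Of the 3 genes that the study used as qPCR markers of EN, 1 sulfate transporter gene was called higher in EN, 1 was found only in EN MM17 at 71.7, and 1 was at 0 in all 5 libraries. The study picked these markers from its own libraries, so they are not independent of the labels. The 3 markers of the cross cells (CC), the green maternal layer, were at 0 in all 5 libraries. The 3 markers of the ovular vascular trace (OVT), the strand that feeds the grain, took at most 1.55e-05% of the signal in AL and 0 in EN. The 4 markers listed for NE took 0.0048, 0.000206 and 4.12e-05% in AL and 0 in EN, but they took only 0.008, 0.000368 and 0.0261% in NE itself at 16 DAF, so their level in AL says little about NE content. The signal in AL came from OsMADS29, a MADS-box factor of the maternal seed tissues, at 232.9, 20.9 and 3.37 in AL MM04, MM17 and MM18. Of 52 tested photosynthesis genes, 50 were under 100 in all 5 libraries.

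In all, 1816 genes were higher in AL (6.60% of 27527 tested) and 1071 were higher in EN (3.89%), together 10.5% of the tested genes. Every count of a gene list below is to be read beside these shares, also where they are not repeated. Of the 2887 genes called, 2818 had libraries that did not overlap between AL and EN. The background of that measure is high, because every AL library lay above every EN library in 34.1% of all tested genes and every EN library above every AL library in 12.2%. Both EN libraries were at 0 for 792 of the AL genes, and all 3 AL libraries were at 0 for 96 of the EN genes. The larger number of AL genes at 0 in EN went with the lower number of genes detected in EN. Where the count of a gene list in 1 direction is given as 0, it was also 0 at an unadjusted p under 0.05 and with voom weights in limma, with the exception of storage proteins (below), of 1 brassinosteroid and 1 ribosomal protein gene at the unadjusted p, and of 1 carboxypeptidase gene by both.

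The split between directions depends on how the libraries are scaled. AL genes made up 62.9% of the calls with the deposited scaling, 77.9% with TMM factors, 89.4% with upper-quartile scaling and 96.3% with equal total signal. The median difference over all tested genes was 0.28 as deposited, 0.48 with TMM, 0.81 with the upper quartile and 1.04 with equal totals. All 1816 AL genes stayed on the AL side in these 4 scalings and 1751 were called in each. The other scalings all moved the median towards AL, so they could hardly turn an AL gene to the EN side. Of the 1071 EN genes, 982 stayed on the EN side in all 4 and 156 were called in each. With equal totals, 89 EN genes turned to the AL side. A statement that a gene is higher in EN therefore refers to the deposited scaling. How the authors set its factor per library was not established.

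**Figure D1:**
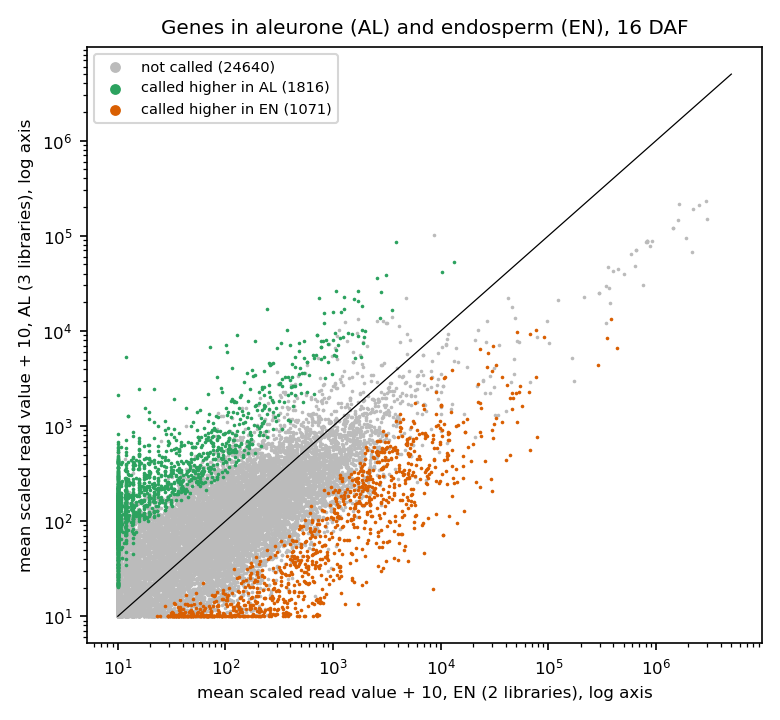
Mean scaled read value plus 10 of each tested gene in EN (2 libraries, horizontal log axis) and AL (3 libraries, vertical log axis), with the line of equal values. Of the 1816 AL genes, 792 have both EN libraries at 0 and form a dense column at the left. The 1071 EN genes lie mainly below the line at intermediate to high values. Most of the points of highest EN value were not called.

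Seed storage protein genes made up 57.1% of EN MM17 and 45.1% of EN MM18, as shares of all signal, but none of them passed the test towards EN. They are the genes annotated with nutrient reservoir activity, which include the glutelins. In AL they took 3.09% in MM04, 28.7% in MM17 and 29.6% in MM18. The NE library MM17, labelled as a maternal layer but nearer to the AL than to the other NE libraries, had 28.2%. The other 16 DAF libraries outside AL and EN had 3.34 to 30.7%. Storage protein reads were thus present in every region, and AL MM04 was the AL library with the fewest.

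OsGLUA1 (Os01g0762500), a glutelin gene, was at 9701, 248600 and 191000 in AL MM04, MM17 and MM18 and at 3205000 and 2734000 in EN MM17 and MM18. Both EN libraries lay above all AL libraries and the fold towards EN was 19.8, but AL MM04 was far below the other AL libraries and the fitted difference was -5.26 ± 2.37 (SE, adjusted p = 0.183). OsGLUA2 (Os10g0400200) was at 7210, 144900 and 129400 in AL and 1846000 and 1969000 in EN. OsGLUB5 (Os02g0268100), which has like values in a neighbouring row and may share reads with it, was at 9328, 338500 and 284800 in AL and 3643000 and 1354000 in EN. Os02g0453600, another gene of nutrient reservoir activity, was at 5126, 109700 and 86270 in AL against 2386000 and 1937000 in EN. In each of these genes the 2 groups did not overlap, while the AL libraries differed among themselves by more than 10-fold.

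Of the 41 nutrient reservoir genes tested, 3 were called higher in AL and 0 higher in EN, against 6.60 and 3.89% of all genes. At an unadjusted p under 0.05, 7 were higher in EN, beside 7.57% of all genes by that rule, and limma with voom weights called 9. The median difference of the list was -0.43, beside 0.28 for all genes. Among the 23 members with a mean EN value over 1000, 19 had both EN libraries above all AL libraries and 22 had AL MM04 as the lowest AL library. The lowest adjusted p among those 19 was 0.0578. Leaving out AL MM17 gave 1 call towards EN, and leaving out any other single library gave 0.

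The 3 members higher in AL went the other way by a wide margin. Os03g0793700 was at 17710, 68170 and 30950 in AL and at 83.1 and 6089 in EN (12.6-fold, 5.47 ± 1.73 SE, adjusted p = 0.0468). Os03g0197300 was at 14380, 26510 and 13610 in AL and at 55.4 and 3604 in EN. Os05g0116000 was at 767, 1163 and 695 in AL and at 178 and 19.2 in EN. All AL libraries lay above both EN libraries in each. EN MM18 was much the higher EN library for the first pair and the lower one for Os05g0116000. Os03g0793700 also lost the call without each of the AL libraries. Without EN MM17 the first pair had an adjusted p of 0.527 and 0.295, and without EN MM18 Os05g0116000 had 0.116.

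**Figure D2:**
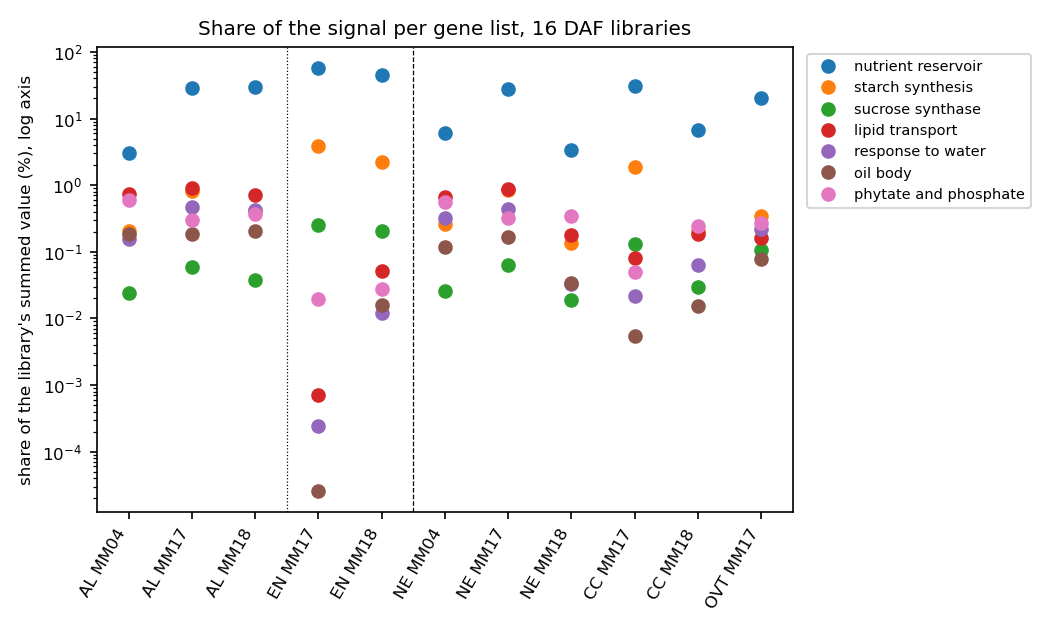
Share of the summed signal (per cent, log axis) that 7 gene lists took in each of the 11 libraries at 16 DAF, with AL left of the dotted line and EN between the lines. Nutrient reservoir genes took 57.1 and 45.1% in EN and 3.09 to 29.6% in AL, starch genes were highest in EN, and the oil body, response to water and lipid transport lists were lowest in EN MM17.

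Starch synthesis genes were higher in EN for the main steps from ADP-glucose to starch. Of 27 identifiers listed for starch synthesis, 9 were higher in EN, 2 higher in AL and 16 were not called. Both EN libraries lay above all AL libraries in 17. Over all genes, 3.89% were higher in EN, 6.60% higher in AL, and 12.2% had both EN libraries above all AL libraries. The list took 3.84 and 2.23% of the signal in EN and 0.203, 0.804 and 0.416% in AL. Its median difference was -2.49, and -2.01, -1.27 and -0.27 with TMM, upper-quartile and equal-total scaling. The list was written from general knowledge, and 26 of the 27 carry a carbohydrate, starch, glycogen or biosynthesis term in the file.

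Os08g0345800, annotated as a glucose-1-phosphate adenylyltransferase, the enzyme that makes ADP-glucose, was at 184, 18200 and 1528 in AL MM04, MM17 and MM18 and at 648300 and 217300 in EN (65.2-fold, -7.74 ± 1.92 SE, adjusted p = 0.0165). AL MM17 was the AL library closest to EN, although the groups did not overlap. Os01g0633100, a nucleotidyltransferase of glycogen biosynthesis by its annotation, was at 405, 20260 and 4719 in AL and 516400 and 181700 in EN, a 41.2-fold difference. Os02g0202400, a membrane transport gene listed with this pathway, was at 5.39, 262 and 140 in AL and 3326 and 8083 in EN. In all 3 the AL libraries kept the same order, with MM04 lowest and MM17 highest. Both nucleotidyltransferase genes lost the call without each library except AL MM17, at adjusted p of 0.0502 to 0.189.

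Among the genes annotated as starch synthases, which extend the glucan chains, 1 passed the test. Os06g0160700 was at 788, 1228 and 953 in AL and 11060 and 16870 in EN (14.1-fold, -3.80 ± 0.81 SE, adjusted p = 0.00399), and it was called with any single library left out. Os06g0133000 was at 265, 2343 and 1267 in AL and 16760 and 47350 in EN, a 24.8-fold difference with an adjusted p of 0.107. The gene with the lower fold was thus the one called.

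Genes of carbohydrate metabolism on the list, whose annotation names glycosyl hydrolase or catalytic activity, were called as well. Os06g0726400 was at 1599, 24680 and 14090 in AL and 540100 and 225700 in EN (28.5-fold). Os02g0528200 was at 609, 2461 and 1444 in AL and 41910 and 50300 in EN (30.6-fold, -5.14 ± 0.90 SE, adjusted p = 0.000718). Os04g0164900 was at 712, 3773 and 2159 in AL and 47940 and 43260 in EN, and Os03g0758100, a phosphorylase that acts on glucan chains, at 319, 2052 and 1128 in AL and 23030 and 11810 in EN. The ninth, Os08g0191433, carries only a biosynthesis term and was 124-fold higher in EN. The groups did not overlap for any of the 9, and Os02g0528200, Os06g0160700 and Os08g0191433 were those called with any single library left out.

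Some members of the same list ran against it. Os07g0662900, a 4-alpha-glucanotransferase, which rearranges glucan chains, was at 716, 831 and 1130 in AL and 0 and 130 in EN (4.56 ± 0.80 SE, adjusted p = 0.000671). Os09g0469400 was at 184, 172 and 265 in AL and 14.7 and 19.2 in EN, and lost the call whichever of the 5 libraries was left out. The number of starch genes called higher in EN was 3 without AL MM04, 9 without AL MM17, 6 without AL MM18, 3 without EN MM17 and 3 without EN MM18. With equal total signal it was 1, and with upper-quartile scaling 3. The starch list and the storage protein genes both had their lowest AL share in MM04, and the part of this in the result was not tested.

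**Figure D3:**
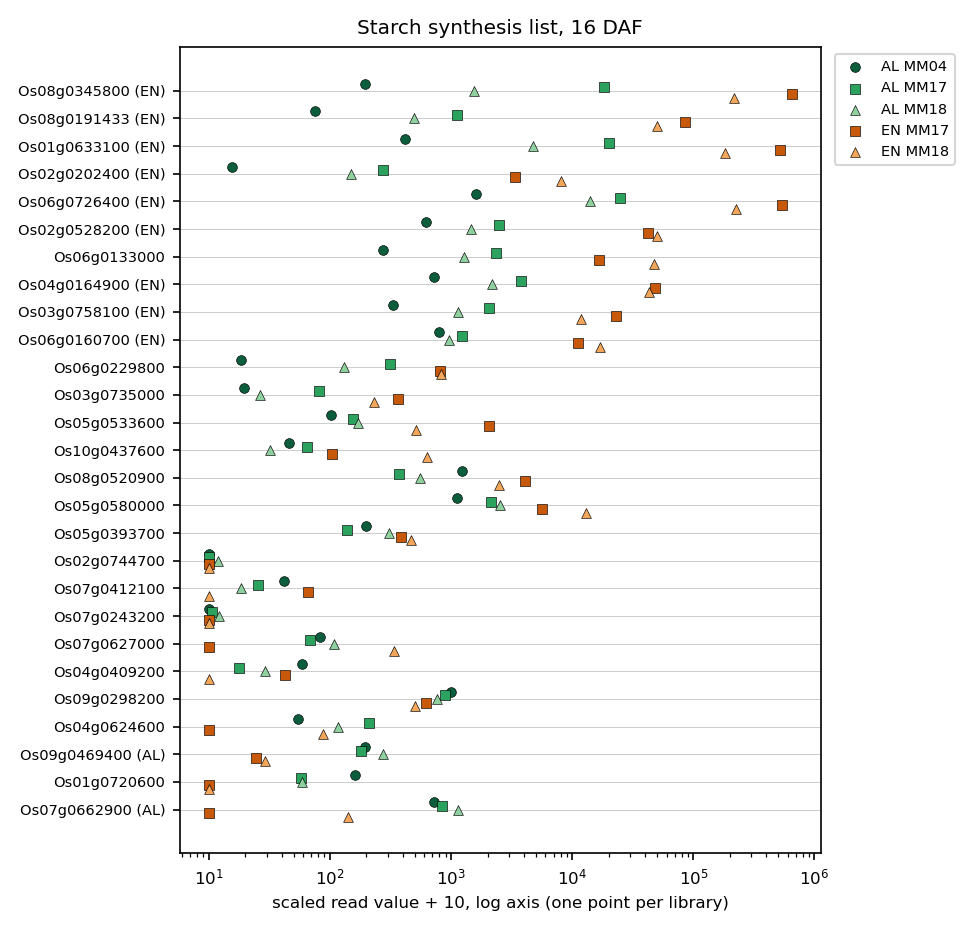
Scaled read value plus 10 (log axis) of the 27 genes of the starch synthesis list in each AL library (green) and EN library (orange), ordered by fitted difference; (EN) and (AL) after an identifier mark the direction of a call. Nearly all of the upper genes have AL MM04 at the left of the AL points and both EN points to the right of them.

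Sucrose synthase splits sucrose as it enters the filling cells, and its calls were all towards EN. Of 6 tested genes with this activity, 2 were higher in EN and 0 in AL, and the same number was called with any single library left out and in each scaling. In a fit of the 5 libraries alone 1 was called, and in a fit of the 16 DAF libraries 0. Os06g0194900 was at 109, 1168 and 166 in AL and 65630 and 23030 in EN (92.2-fold, -7.06 ± 1.17 SE, adjusted p = 0.000445). Os03g0340500 was at 841, 4136 and 1883 in AL and 48950 and 57200 in EN (23.2-fold, -4.81 ± 0.79 SE, adjusted p = 0.000406). Both genes have a neighbouring row with like values, so their reads may be split or shared. The sucrose synthase list took 0.25 and 0.208% of the EN signal and 0.0239 to 0.0595% of the AL signal. It was added after the annotation had been read.

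Glycolysis genes moved in both directions, with different genes for the same step. Of 51 tested, 10 were higher in AL and 4 in EN, beside 6.60 and 3.89% of all genes. Os06g0326400, a phosphofructokinase that by annotation can use pyrophosphate, was at 196, 592 and 472 in AL and 26210 and 25310 in EN (61.3-fold). Os05g0524400, annotated as 6-phosphofructokinase, was at 899, 695 and 682 in AL and 0 and 46.0 in EN (33.0-fold towards AL). The 2 genes of this step thus lay in opposite directions, each without overlap and each called with any single library left out.

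The same held for pyruvate kinase, the last step of glycolysis. Os12g0145700 was at 1360, 913 and 1027 in AL and 19160 and 12730 in EN, and Os10g0571200 was at 1121, 430 and 312 in AL and 17.9 and 0 in EN. The fitted differences were -3.84 ± 0.90 and 5.02 ± 0.90 (SE), with adjusted p of 0.00822 and 0.000884. Without EN MM17 the first had an adjusted p of 0.0752. Enolase, which feeds that step, had 1 strongly AL gene, Os03g0248600, at 2747, 901 and 908 in AL and 0.815 and 15.3 in EN (188-fold, adjusted p = 1.45e-06).

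The remaining EN genes of glycolysis were abundant in both regions. Os01g0905800, a fructose-bisphosphate aldolase, was at 13240, 8950 and 6825 in AL and 49890 and 53330 in EN (5.34-fold, adjusted p = 0.000488). Os02g0169300, a phosphoglycerate kinase, was at 4615, 3166 and 1909 in AL and 14320 and 7370 in EN. Their direction rests on the scaling, since with equal total signal their differences were 0.12 and 0.83 towards AL. Tricarboxylic acid cycle genes, which act after glycolysis in the mitochondrion, were called in 1 direction. Of 19 tested, 6 were higher in AL and 0 in EN, beside 6.60 and 3.89% of all genes. With 1 AL library left out, 2 or 3 were higher in AL. Os07g0695800, a 2-oxoglutarate dehydrogenase by annotation, was at 856, 462 and 328 in AL and 0 and 11.5 in EN.

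Of 58 tested fatty acid biosynthesis genes, 4 were higher in AL and 5 in EN, beside 6.60 and 3.89% of all genes. With upper-quartile scaling the numbers were 14 and 3, and with equal total signal 15 and 1. Os04g0445700, an acyl-transferring enzyme of this pathway, was at 2.62, 0.261 and 15.2 in AL and 507 and 1127 in EN (135-fold, -5.69 ± 0.90 SE, adjusted p = 0.000293). Os11g0659500 and Os02g0644700, both thioesterases by annotation, which release the finished fatty acid, were 20.5-fold and 19.7-fold higher in EN. Os11g0659500 was at 314, 518 and 306 in AL and 8131 and 7445 in EN, and Os02g0644700 at 140, 231 and 103 in AL and 2572 and 3641 in EN. In all 3 genes the groups were far apart and the call held with any single library left out.

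Of 159 tested genes of lipid metabolism, 14 were higher in AL, a share near the 6.60% of all genes, and 14 in EN. The numbers were 20 and 1 with equal total signal. Os06g0160200, an ester hydrolase, was at 12.9, 3184 and 103 in AL MM04, MM17 and MM18 and 54570 and 47880 in EN (46.6-fold). Os01g0898500 was at 155, 4207 and 2479 in AL and 67360 and 63680 in EN (28.7-fold). The AL libraries spanned over 10-fold in both genes. The first was called with any single library left out, and the second lost the call without AL MM04, EN MM17 or EN MM18.

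Microtubule genes were called mostly towards EN under the deposited scaling. Of 57 genes of microtubule-based movement, 9 were higher in EN and 1 in AL, beside 3.89 and 6.60% of all genes. Os01g0625200, a motor protein gene, was at 41.6, 37.1 and 55.8 in AL and 2516 and 6799 in EN (104-fold, -6.26 ± 1.08 SE, adjusted p = 0.000625). Os03g0726100, a structural GTPase of the microtubule, was at 10560, 9150 and 6085 in AL and 140200 and 42490 in EN. The AL libraries of Os01g0625200 lay close together, and the groups did not overlap in either gene. Without 1 library, 4 to 6 of the 57 genes were called higher in EN. With upper-quartile scaling 3 were higher in EN and 2 in AL, and with equal total signal 2 in each, so the excess towards EN rests on the scaling. Cellulose biosynthesis had 4 genes higher in EN and 2 in AL among 22, including the cellulose synthase gene Os08g0160500 at 0, 18.3 and 6.34 in AL and 245 and 759 in EN.

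Nutrient carriers of EN included genes for amino acids and sulfate. Os12g0623500, an amino acid transporter, was at 221, 212 and 453 in AL and 4752 and 4076 in EN (15.0-fold, -3.94 ± 0.68 SE, adjusted p = 0.000583). Os01g0593700, the sulfate transporter gene among the EN markers of the study, was at 0, 0.261 and 0 in AL and 132 and 943 in EN (-5.19 ± 0.53 SE, adjusted p = 1.65e-06). Both held with any single library left out. Of 37 genes the study listed as amino acid transporters, 6 were higher in AL and 3 in EN, so the class did not lie on 1 side. The study drew its transporter, hormone and transcription factor tables from these libraries, so counts over them are not independent evidence of a direction.

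Several of the largest EN differences were in genes that the file does not annotate. Os06g0527800 was at 0.308, 555 and 31.7 in AL and 28920 and 30900 in EN (153-fold). Os06g0528300, a nearby identifier, was at 0, 225 and 30.7 in AL and 15250 and 13060 in EN. Os01g0498802 was at 0.154, 27.2 and 0.507 in AL and 13530 and 3267 in EN (906-fold, -8.72 ± 0.83 SE, adjusted p = 7.58e-07). All 3 were near 0 in AL MM04 and highest among the AL libraries in MM17. Os07g0604300 had the same order, at 0.308, 184 and 2.28 in AL and 9936 and 11190 in EN, and shares like values with the next row. Os04g0645100, a protein-binding gene, was 110-fold higher in EN and Os08g0346001, which lies beside the adenylyltransferase gene and has like values, 66.3-fold. Except for Os08g0346001, these genes were called with any single library left out. Over all 1071 EN genes, AL MM17 alone was the highest AL library in 563 and AL MM04 alone the lowest in 487.

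In AL, genes of protection against oxidation and drying, of oil bodies and of lipid transfer were at high values. They were not particular to AL, and their values in NE are given below. Os07g0638300, a peroxiredoxin, which removes peroxides, was at 64730, 123300 and 72080 in AL and at 108 and 7500 in EN (22.8-fold, 6.47 ± 1.14 SE, adjusted p = 0.000764). It was among the 10 AL genes with the largest differences. Os07g0665200, a superoxide dismutase, was at 9125, 9463 and 7895 in AL and 795 and 2627 in EN (5.16-fold). The AL libraries lay close together for both genes, and EN MM18 lay above EN MM17. Without EN MM17 their adjusted p was 0.0536 and 0.206. Of 81 tested genes of response to oxidative stress, 7 were higher in AL, a share near the 6.60% of all genes, and 1 in EN.

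Oil body genes, whose products coat the oil droplets of the seed, were higher in AL for 3 of 6 and in EN for 0. Over all genes the shares were 6.60 and 3.89%. Os04g0546500 was at 2545, 7354 and 6602 in AL and 3.26 and 2013 in EN (5.46-fold, 4.93 ± 1.43 SE, adjusted p = 0.0284). Os03g0699000 was at 6046, 10380 and 9291 in AL and 9.78 and 3865 in EN, and Os06g0473800 at 32.9, 139 and 112 in AL and 0 and 11.5 in EN. All AL libraries were above both EN libraries in each gene, but EN MM18 lay within 2-fold of AL MM04 in the first pair while EN MM17 was far lower. Without EN MM17 none of the 3 was called, at adjusted p of up to 0.797, and without AL MM17 or AL MM18 none was called either.

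The response to water genes, which belong to the drying programme of seeds, followed the same course. Of 7 tested, 4 were higher in AL and 6 had all AL libraries above both EN libraries, beside 6.60 and 34.1% of all genes. Os11g0454300 was at 5043, 36000 and 27360 in AL and 53.8 and 2450 in EN (18.2-fold, 5.43 ± 1.49 SE, adjusted p = 0.0204). Os01g0702500 was at 720, 2628 and 2003 in AL and 6.52 and 671 in EN, so that EN MM18 nearly reached AL MM04. Os06g0324400, an embryo development gene, was at 2901, 12430 and 5703 in AL and 1.63 and 775 in EN. OsEMP1 (Os05g0349800), chosen for AL though the text of the study does not name it, was at 2603, 11710 and 5670 in AL and 42.4 and 2002 in EN. Its adjusted p was 0.0587. Without EN MM17, 0 of the 7 response to water genes were called, and without the other libraries 0 to 3.

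Lipid transport genes were higher in AL for 9 of 52 and in EN for 0, beside 6.60 and 3.89% of all genes. Os11g0427800 was at 8751, 23680 and 14480 in AL and 96.2 and 2270 in EN (13.2-fold). Os12g0115100 was at 9942, 24630 and 15660 in AL and 52.2 and 6935 in EN (4.79-fold), and Os11g0620300 at 2176, 7668 and 4034 in AL and 3.26 and 483 in EN. AL MM17 was the highest and EN MM17 the lowest of the 5 libraries in each. The count of 9 became 1 without EN MM17, 4 without AL MM17 or AL MM18, 8 without AL MM04 and 11 without EN MM18.

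EN MM18 carried more of these lists than EN MM17 throughout. Oil body genes took 2.57e-05% of the signal in EN MM17 and 0.016% in EN MM18, beside 0.183 to 0.204% in AL. Response to water genes took 0.000241 and 0.0119% in EN and 0.158 to 0.472% in AL, and lipid transport genes 0.000704 and 0.0513% in EN and 0.709 to 0.896% in AL. The part of AL transcripts in EN MM18 in these results was not tested. Over all 1816 AL genes, EN MM17 was at 0 in 1287 and EN MM18 in 948, and EN MM18 lay above EN MM17 in 762. In NE MM04, MM17 and MM18, oil body genes took 0.117, 0.165 and 0.0345% of the signal. Response to water genes took 0.325, 0.439 and 0.0331% there, and lipid transport genes 0.656, 0.882 and 0.178%. The peroxiredoxin Os07g0638300 was at 105600, 112400 and 32290 in these NE libraries.

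Serine carboxypeptidases, which cleave amino acids from the ends of proteins, gave 3 genes higher in AL and 0 in EN among 35, a share near the 6.60% of all genes. Os10g0101200 was at 960, 3759 and 2650 in AL and 0 and 11.5 in EN (7.19 ± 1.57 SE, adjusted p = 0.00453). Os11g0432900 was at 21770, 13880 and 14810 in AL and 6.52 and 2477 in EN. Both lost the call without EN MM17, at adjusted p of 0.0538 and 0.304. Proteolysis as a whole had 27 of 294 genes higher in AL and 6 in EN.

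**Figure D4:**
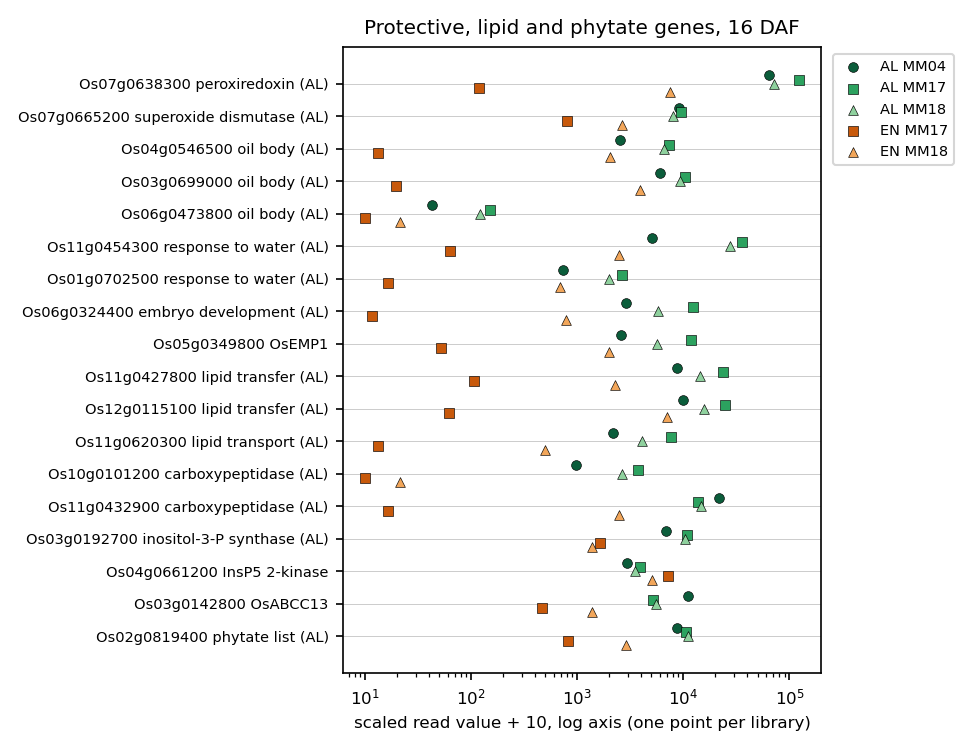
Scaled read value plus 10 (log axis) of 18 genes for protection, oil bodies, drying, lipid transfer, proteolysis and phytate in each AL library (green) and EN library (orange); (AL) marks a call. The AL points lie together at the right, EN MM17 (square) is usually far to the left, and EN MM18 (triangle) lies between them for most genes.

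Proton pump genes were called towards AL. OsAHA2 (Os07g0191200), a plasma membrane proton ATPase, which drives uptake of nutrients across the membrane, was at 17910, 1264 and 2141 in AL MM04, MM17 and MM18 and at 0 and 184 in EN (77.2-fold, 6.38 ± 1.29 SE, adjusted p = 0.00266). Os07g0191250, the next row, had like values of 17000, 1167 and 1946 in AL, so the pair may count the same reads. OsAHA1 (Os03g0689300) was at 14240, 4455 and 4532 in AL and 0 and 1051 in EN. OsAHA3 (Os12g0638700) was at 83.6, 53.5 and 132 in AL and 0 in both EN libraries, at least 10.96-fold higher in AL. AL MM04 was well above the other AL libraries for OsAHA1 and OsAHA2 but not for OsAHA3. Without EN MM17 the adjusted p was 0.3 for OsAHA1 and 0.101 for OsAHA2.

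Vacuolar proton pumps lay on the same side. Of 6 hydrogen-translocating pyrophosphatase genes, which acidify the vacuole with pyrophosphate, 3 were higher in AL and 0 in EN, and 2 or 3 when 1 library was left out. Os02g0802500 was at 3255, 2167 and 1917 in AL and 0 and 23.0 in EN (213-fold, 7.04 ± 1.09 SE, adjusted p = 0.000244). Its neighbour Os02g0802575 has like values. Os06g0644200 was at 773, 385 and 425 in AL and 0 in both EN libraries, at least 64.4-fold higher in AL. The vacuolar ATPase gene Os11g0169900 was at 901, 1111 and 1202 in AL and 214 and 199 in EN, a smaller difference of 5.18-fold. Among the 16 genes the study tabulated as ATP-driven pumps, 4 were higher in AL and 0 in EN, and without EN MM17 the number was 0.

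The largest AL differences included genes with no annotation. Os06g0553200 was at 12580, 2932 and 484 in AL and at 0 and 3.84 in EN, where the last value is 1 read (7.81 ± 1.26 SE, adjusted p = 0.000333). Os01g0136000 was at 909, 1535 and 1374 in AL and 0 and 5.11 in EN, and has like values with the next row. Os07g0422250 was at 4925, 28840 and 17600 in AL and 48.9 and 418 in EN (73.3-fold). The AL libraries spanned a wide range in Os06g0553200 and Os07g0422250 and a narrow one in Os01g0136000. Os11g0582400 had one of the highest AL values of all, at 75970, 155300 and 72840 in AL and 337 and 16980 in EN, yet an adjusted p of 0.126.

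Phytate genes were higher in AL at the first step of the pathway. Os03g0192700, an inositol-3-phosphate synthase, which starts inositol and phytate synthesis, was at 6785, 10910 and 10420 in AL and 1620 and 1369 in EN (6.27-fold, 2.61 ± 0.74 SE, adjusted p = 0.0239). Os02g0819400, listed with the pathway but not annotated, was at 8764, 10580 and 11150 in AL and 812 and 2868 in EN (5.53-fold). OsABCC13 (Os03g0142800), an ABC transporter, was at 11100, 5174 and 5556 in AL and 460 and 1365 in EN, with an adjusted p of 0.0548. In these 3 genes all AL libraries lay above both EN libraries. Both called genes have a neighbouring row with like values.

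The last enzyme of the pathway was not called. Os04g0661200, an inositol pentakisphosphate 2-kinase, which makes phytate, was at 2904, 3855 and 3510 in AL and 7181 and 5092 in EN, with EN above AL (-0.83 ± 0.62 SE, adjusted p = 0.472). With equal total signal its difference was 1.75, on the AL side. Of 5 identifiers listed for phytate and phosphate supply, 2 were higher in AL and 0 in EN. Without AL MM17, AL MM18 or EN MM17 the number was 0, without EN MM18 1 and without AL MM04 2. The list took 0.3 to 0.609% of the signal in AL and 0.0199 and 0.0277% in EN.

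Metal carriers chosen for AL, which the text of the study does not name, were low in value there and at or near 0 in EN. OsHMA2 (Os06g0676000), a zinc-transporting ATPase, was at 194, 161 and 114 in AL and 0 in both EN libraries, at least 19.1-fold higher in AL (adjusted p = 0.00863, and 0.0503 without EN MM17). OsVIT2 (Os09g0396900), a carrier of iron into the vacuole, was at 61.9, 55.4 and 135 in AL and 0 in both EN libraries, at least 10.3-fold higher, and lost the call whichever library was left out. OsZIP10 (Os06g0566300), a ZIP-family zinc carrier, was at 155, 184 and 130 in AL and 11.4 and 19.2 in EN, with an adjusted p of 0.0775 and like values in a neighbouring row. The AL values of OsHMA2 and OsZIP10 were closer together than those of OsVIT2. The floor of 3 reads corresponds to 4.89 in EN MM17 and 11.5 in EN MM18, which limits how firmly a 0 there can be read.

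Heavy metal genes of the same class were found on both sides. OsHMA1 (Os06g0690700) was at 72.3, 57.2 and 30.4 in AL and 1045 and 1622 in EN (25.01-fold towards EN, -4.43 ± 0.89 SE, adjusted p = 0.00246). Os04g0533900, a heavy metal binding gene in the study's transporter table, was at 265, 522 and 496 in AL and 4.07 and 19.2 in EN (36.8-fold towards AL). Both held with any single library left out. Of 66 genes of metal ion transport, 7 were higher in AL and 5 in EN. Of 10 tested identifiers listed for iron and zinc handling, 2 were higher in AL and 0 in EN, which are OsHMA2 and OsVIT2. Os01g0919900, listed by the study with ferritins although its annotation is a fatty acid desaturase, was 3.83-fold higher in AL, but lost the call whichever library was left out.

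Transcription factors were called in both directions. Os02g0725900, an NF-Y family gene in the study's table, was at 43320, 13840 and 9727 in AL and 37.5 and 1411 in EN (30.8-fold towards AL, 6.12 ± 1.16 SE, adjusted p = 0.00151). It had been listed among 5 endosperm filling regulators, of which it was the only one higher in AL, while 2 were higher in EN. Os01g0859300, a bZIP family gene, was at 4066, 3668 and 5805 in AL and 0 and 809 in EN. Neither gene overlapped between groups, but without EN MM17 the adjusted p was 0.0862 and 0.289.

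On the EN side, Os07g0182000, another bZIP gene, was at 13.7, 290 and 372 in AL and 1680 and 4966 in EN (14.7-fold, -4.38 ± 1.23 SE, adjusted p = 0.0234). Os02g0252400, a zinc-binding DNA-binding gene, was at 18.8, 191 and 89.8 in AL and 898 and 2542 in EN (17.2-fold). Os02g0579600, a MADS-box gene of the MIKC type, was at 24.9, 112 and 40.9 in AL and 1589 and 3635 in EN (44.0-fold), and was the one of these called with any single library left out. AL MM04 was again the lowest AL library in each. The 2 remaining filling regulators, Os01g0104500 and Os01g0393100, were highest in EN but had adjusted p of 0.271 and 0.109. Without AL MM04, EN MM17 or EN MM18, 0 of the 5 filling regulators were called higher in EN.

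Factors chosen for AL, which the text of the study names except for OsbZIP46, were mostly at low values. OsbZIP46 (Os03g0214200), a bZIP factor of the abscisic acid response, was at 268, 223 and 145 in AL and 0 in both EN libraries, at least 25.9-fold higher (adjusted p = 0.00457). OsWRKY71 (Os02g0181300), a repressor of gibberellin-responsive genes in aleurone cells, was at 32.5, 47.0 and 69.3 in AL and 0 and 7.67 in EN (adjusted p = 0.0152). In NE MM04, MM17 and MM18 OsWRKY71 was at 29.6, 41.3 and 0. The AP2 gene Os04g0653600 was at 21.9, 7.05 and 39.3 in AL, 0 in EN and 11180 in OVT MM17 at 16 DAF. The ERF gene Os05g0437100 was at 8.00, 16.5 and 10.9 in AL and 0 in EN, close to the EN floor. OsbZIP46 was the only one of these 4 called with any single library left out, and Os05g0437100 lost the call without AL MM17, EN MM17 or EN MM18.

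The heat shock factors in that set did not pass. Os02g0232000, Os06g0553100 and Os10g0419300 had adjusted p of 0.114, 0.481 and 0.244. Os06g0553100 was at 68.8, 167 and 74.8 in AL and 179 and 0 in EN, so the groups overlapped. OsVP1 (Os01g0911700), a regulator of seed maturation known to act in aleurone and embryo, was at 163, 185 and 150 in AL and 0 and 176 in EN, and the groups overlapped through EN MM18. Of 349 genes of transcription factor activity, 23 were higher in AL (beside 6.60% of all genes) and 8 in EN (beside 3.89%).

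Hormone genes were compared through the study's table, so members named from it were chosen after their values were seen. Auxin genes had 10 of 50 higher in AL and 2 in EN, beside 6.60 and 3.89% of all genes. OsARF2 (Os01g0670800) and OsARF15 (Os05g0563400), auxin response factors, were at 212, 310 and 257 and at 232, 180 and 232 in AL and at 0 in both EN libraries, at least 31.7-fold and 26.2-fold higher in AL. OsARF24 (Os12g0479400) was at 2446, 952 and 829 in AL and 197 and 19.2 in EN (13.02-fold). OsIAA4 (Os01g0286900), an auxin repressor of the Aux/IAA family, was at 118, 221 and 272 in AL and 0 and 15.3 in EN. OsARF15 and OsARF24 were called with any single library left out, OsARF2 lost the call without EN MM17, and OsIAA4 lost it without each library but AL MM04.

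Other ARF genes were EN genes. OsARF4 (Os01g0927600) was at 624, 438 and 654 in AL and 3018 and 4107 in EN (6.23-fold towards EN), and OsARF1 (Os01g0236300) at 45.7, 165 and 98.7 in AL and 1431 and 1683 in EN (15.1-fold). No group overlapped. With equal total signal the difference of OsARF4 was -0.05, so its direction rests on the scaling. Of 15 genes in the study's ARF family, 5 were higher in AL and 1 in EN. The number of auxin genes higher in AL was 4 to 8 when 1 library was left out.

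Brassinosteroid genes were called towards AL alone, with 11 of 29 higher in AL and 0 in EN. The median difference of this list was 1.86, beside 0.28 for all genes. OsSMT1 (Os07g0206700), a methyltransferase of sterol synthesis, was at 517, 578 and 540 in AL and 0 and 53.7 in EN (20.3-fold, 4.46 ± 0.66 SE, adjusted p = 0.000157). OsDWARF5 (Os02g0465400), a reductase of the same route by annotation, was at 446, 423 and 273 in AL and 0 and 11.5 in EN. OsGSK4 (Os06g0547900), a kinase tabulated with brassinosteroid signalling, was at 200, 180 and 186 in AL and 0 in both EN libraries, at least 23.0-fold higher, and the receptor-like kinase OsBRL1 (Os09g0293500) at least 23.5-fold. The first 3 had tight AL values and were called with any single library left out, while OsBRL1 lost the call without AL MM17, AL MM18, EN MM17 or EN MM18. With 1 library left out, 4 to 6 of the 29 genes were higher in AL.

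Abscisic acid genes went both ways, with 11 of 61 higher in AL and 6 in EN, beside 6.60 and 3.89% of all genes. OsAAO3 (Os03g0790900), an aldehyde oxidase of abscisic acid synthesis, was at 404, 742 and 975 in AL and 0 and 217 in EN (6.53-fold). OsNCED3 (Os03g0645900), the enzyme that cleaves the carotenoid precursor, was at 7.23, 33.4 and 11.4 in AL and 0 in EN, at least 2.12-fold higher. OsDGAT1 (Os06g0563900), which makes storage oil and is tabulated with this hormone, was at 993, 672 and 628 in AL and 0 and 92.0 in EN (16.6-fold). Os05g0569500, a tabulated gene with no annotation, was at 5188, 13490 and 8586 in AL and 0 and 1392 in EN. All 4 had AL above EN, and each lost the call without EN MM17, OsAAO3 and OsNCED3 also without AL MM17 or AL MM18, and OsNCED3 also without EN MM18.

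On the EN side of the same table stood OsEIL4 (Os08g0508700), a factor of the EIN3-like family known for ethylene responses, at 87.3, 687 and 287 in AL and 9342 and 5890 in EN (21.5-fold). OsUBC6 (Os09g0321900), a ligase gene by annotation, was at 171, 422 and 277 in AL and 5282 and 6335 in EN (20.03-fold). Os12g0145100, with no annotation, was at 93.4, 682 and 653 in AL and 5021 and 17940 in EN. These groups did not overlap, and OsUBC6 and Os12g0145100 held with any single library left out. With equal total signal, 0 of the 61 genes were called higher in EN.

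Cytokinin signalling genes lay on both sides. OsAHP1 (Os08g0557700), a phosphotransfer protein that passes the signal on, was at 212, 185 and 228 in AL and 0 in both EN libraries, at least 25.4-fold higher in AL (adjusted p = 0.00105). The response regulators OsRR6 (Os04g0673300) and OsRR10 (Os12g0139400) were higher in EN. OsRR6 was at 0, 0 and 2.03 in AL and 96.2 and 1308 in EN, and OsRR10 at 16.0, 29.3 and 11.5 in AL and 233 and 320 in EN. OsRR6 differed by over 10-fold between the EN libraries and lost the call without EN MM18. OsRR10 lost the call without each library but AL MM17, and also with upper-quartile scaling. With equal total signal both response regulators lost the call. Of 21 tabulated cytokinin genes, 6 were higher in AL and 2 in EN. Gibberellin genes had 3 in each direction among 33, including the EN gene Os05g0432200 at 42.7-fold, and ethylene genes 4 in each direction among 34.

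**Figure D5:**
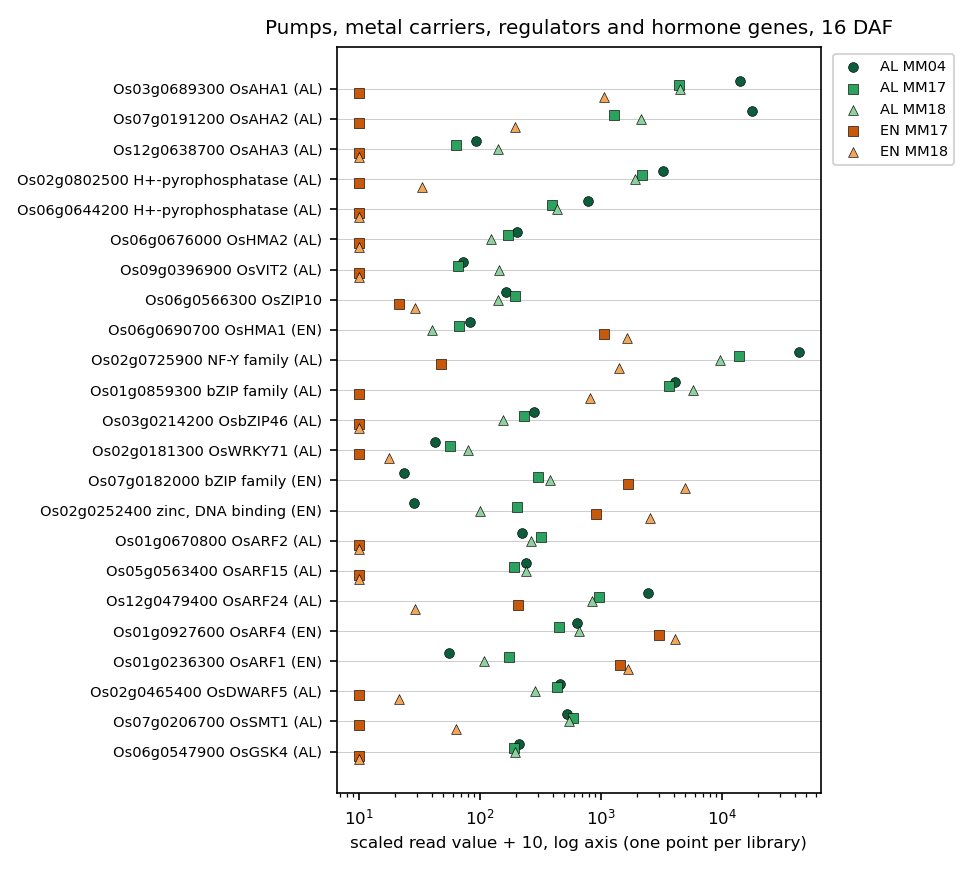
Scaled read value plus 10 (log axis) of 23 pump, metal carrier, regulator and hormone genes in each AL library (green) and EN library (orange); (AL) and (EN) mark the direction of a call. Points at 10 are values of 0, where most of the AL genes have EN MM17 and often EN MM18, while the 5 EN genes have both orange points at the right.

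ABC transporters and carriers of organic compounds were called mainly towards AL, the direction of 62.9% of all calls. Of 49 tabulated ABC genes, 7 were higher in AL and 1 in EN, beside 6.60 and 3.89% of all genes. With 1 AL library left out, 2 or 3 were higher in AL. OsABCG45 (Os08g0544400) was at 4628, 4312 and 6445 in AL and 27.7 and 1277 in EN (7.86-fold), and OsABCG37 (Os01g0609900) at 417, 83.6 and 120 in AL and 0 in both EN libraries, at least 25.2-fold higher. OsABCB24 (Os01g0911300) was the EN gene, at 35.6, 196 and 76.6 in AL and 1305 and 3279 in EN (22.3-fold, -4.48 ± 0.89 SE, adjusted p = 0.00222). OsABCG37 and OsABCB24 held with any single library left out, and OsABCG45 lost the call without each library but EN MM18. Of 16 tabulated MATE genes, which export organic compounds, 3 were higher in AL and 0 in EN. With any 1 AL library left out, 2 were higher in AL. OsPEZ2 (Os03g0572900) was at 290, 315 and 286 in AL and 0 and 15.3 in EN, but its adjusted p was 0.046 and the call was lost whichever library was left out. Sugar carriers had 2 genes in each direction among 24.

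Ribosomal protein genes were seldom called under the deposited scaling. Of 301, 5 were higher in AL and 0 in EN, beside 6.60 and 3.89% of all genes, and the median difference was 0.20. With equal total signal 107 were higher in AL and the median was 2.20. The list took 1.51, 1 and 1.39% of the signal in AL and 0.305 and 0.19% in EN. The call for this group thus depends on the scaling. DNA replication genes had 4 of 55 higher in AL and 0 in EN, nucleosome genes 5 and 3 of 56, and protein folding genes 15 and 9 of 182. Under the deposited scaling these shares were near those of all genes. With equal total signal nucleosome genes had 19 higher in AL and 1 in EN, and protein folding genes 53 and 2. DNA replication genes then had 4 and 0, beside 4096 and 156 of all 27527 genes.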

How the data were processed

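Grain regions cut by laser were sequenced in 28 libraries of 13 groups, of which 3 of AL and 2 of EN at 16 DAF were compared. The authors amplified cDNA with the SMARTer Ultra Low kit, mapped reads to IRGSP-1.0 by STAR and obtained gene counts in R/Bioconductor; edgeR also appears in the processing notes, and versions are not given in the sources used here. The deposited signal, made by the authors, is reads per gene times 1 factor per library. Reads were estimated by taking the most frequent value above 0 in each library as 1 read, and 3 reads served as the floor. Smaller values occur, such as 0.815 in EN MM17 beside 1.63 per read, so estimated reads can be fractions. The kit does not mark strand, so overlapping antisense genes cannot be told apart. Tests covered the 27527 of 45990 genes that in 1 or more libraries exceeded a value of 10 and reached 10 estimated reads.

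The model on log2(value + 10) used limma 3.58.1 under R 4.3.3, with statmod 1.5.0 and the package data.table in version 1.17.8. Each group had 1 mean, and variances were moderated by empirical Bayes with trend and robust prior, with 15 degrees of freedom left over and a median prior of 8.87. P-values were two-sided, with Benjamini-Hochberg adjustment across the tested genes. The fit was tested on simulated data. Alternatives were other pseudocounts, filters, scalings and sample sets, a replicate block, voom weights, the unadjusted p, and each library left out. The equal-total scaling and voom weights were chosen after seeing the data.

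Named genes were the 10 largest differences per direction among called genes without overlap, and all members of identifier lists. Up to 4 called members of each GO list per direction, the 10 highest means per group, and a set chosen for AL were also named. The text of the study names only part of that set. Members of the study's tables and of GO lists added later were named after their values were seen, as was Os03g0726100. Members and lists were chosen with earlier results of these data known. Lists defined by words could not be applied, since the table carries GO identifiers without descriptions. Names and roles come from these identifiers and the study. The numbers 17 and 18 recur in both groups, and the deviations of like-numbered libraries correlated at -0.043 and 0.01. The deviations of the EN libraries mirror each other, so these values cannot show whether like-numbered libraries are pairs. Like-numbered libraries were not taken as pairs in the main model. The table holds 1 further column of sample values, which was not used. Columns marking presence of a gene were not used.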

Additional observations from a re-analysis of the deposited data

How the results depend on the processing

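The number of genes higher in AL was 1816 and in EN 1071. With the added value 1 in place of 10, 3567 genes were higher in AL, and with 30, 1119. TMM, upper-quartile and equal-total scaling gave 2866, 4268 and 4096 AL genes, and the last 2 gave 507 and 156 EN genes. With the 16 DAF libraries alone 731 and 576 were called, and at an unadjusted p under 0.05, 4479 and 2083. Leaving out 1 library gave 750 (without EN MM17) to 1239 AL genes and 662 (without AL MM04) to 854 EN genes. Without 1 EN library the lone sample is assumed to vary like the other groups. In number, the remaining settings stayed within 1.5 times: no filter, a filter on the 5 libraries, the 5 libraries alone and voom weights. The genes called were less alike than the numbers. The fit of the 5 libraries shared 1022 of the 1816 AL calls and 530 of the 1071 EN calls. With voom weights 1260 and 946 were shared. Of the 105 called genes named above, 61 lost the call in the fit of the 5 libraries and 68 with the 16 DAF libraries alone. The replicate block, with libraries that share only an MM number, gave 1408 and 850 genes. Of 105 called genes named above, 45 were called whichever library was left out. With equal total signal the difference of Os01g0905800 was 0.12 and that of Os02g0169300 0.83, both towards AL instead of EN. The causes were not tested. The planned edgeR and DESeq2 fits were not run, because the values are scaled and not whole counts, and the promoter motif search was not run. Depth limits what can be called absent in EN, where 3 reads correspond to 4.89 in MM17 and 11.5 in MM18.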

Other observations

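Os02g0725900, the NF-Y family gene that was 30.8-fold higher in AL, and the storage protein genes ran in opposite orders across the AL libraries. Os02g0725900 was at 43320 in AL MM04, 13840 in MM17 and 9727 in MM18, while the nutrient reservoir list had a share of 3.09, 28.7 and 29.6% there. The plasma membrane proton ATPase genes OsAHA1 and OsAHA2 were also highest in AL MM04. These are values of 3 libraries, with no test.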
